A study of Homo sapiens with 6 samples.

Results

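The genes described here form the front end of the extrinsic death pathway: the receptors TNFRSF10A, TNFRSF10B, TNFRSF10D and FAS, the adaptor FADD, the initiator caspases CASP8 and CASP10, and CFLAR, which holds those caspases in check. These 8 genes were listed by name. All probe sets whose only annotated gene symbol was one of them were taken, which gave 33 probe sets of the 44988 with 1 symbol, and 8 genes of 18132. They were compared on 6 expression arrays of ARPE-19 cells, an established line of human retinal pigment epithelium grown in DMEM with serum. On 3 arrays, called SATalpha, the cells had received a plasmid that carries GFP together with satellite alpha, a repeat found at human centromeres. On the other 3, called GFP, they had received the GFP plasmid, which served as the control. Both groups were given 2.5 µg of plasmid per well, so transfection itself was common to all arrays. The promoter on the plasmids, the share of cells that took them up and the time to harvest are not given in the sources that were used. Whether wells of a group were separate cultures is not stated, so p-values reflect the spread between wells, which may be technical.

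The 6 arrays were alike in scale, with medians of 5.29 to 5.32 (log2) and correlations across probe sets of 0.995 to 0.997. Of 12 retinal pigment epithelium markers with a probe set, 5 lay above the floor of the gene-level test, a mean log2 level of 5.19. These were OTX2 and MITF, well above it at 8.34 and 8.11, and SERPINF1, PMEL and TYR at 6.03, 5.74 and 5.26. RPE65, RLBP1 and LRAT of the visual cycle and the channel gene BEST1 were among those below the floor. Of the 5 tested markers, 0 passed (limma; 0 also at an unadjusted p under 0.05). The keratins KRT8, KRT18 and KRT7, abundant in this line, fell by 0.13, 0.21 and 0.21, while EZR, the fourth gene of that list, differed by 0.10 and did not pass (limma adjusted p = 0.126). Of 16 leukocyte, endothelial and fibroblast markers with a probe set, 4 lay above the floor and 0 of these passed (limma; 0 also at an unadjusted p under 0.05). Summed leukocyte markers ranged from 6.85 to 6.998 in SATalpha and from 6.90 to 7.02 in GFP (log2).

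Death receptors are surface proteins of the TNF receptor superfamily. When FAS binds its ligand, or TNFRSF10A and TNFRSF10B bind TRAIL (the product of TNFSF10), their intracellular death domains gather FADD, and FADD recruits CASP8 and CASP10 through death effector domains. The crowded caspases then become active. CFLAR, also known as c-FLIP, resembles CASP8 but lacks protease activity, and it takes a caspase's place in the complex. TNFRSF10D, a decoy receptor for TRAIL, binds the ligand but has a truncated death domain. The pathway is known for clearing infected or stressed cells, and epithelial cells often carry its receptors without dying when these are engaged.

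CFLAR, CASP10 and CASP8 are consecutive protein-coding genes on chromosome 2 in RefSeq (GRCh38.p14). The promoters of CFLAR and CASP8, 300 bases from 250 before the RefSeq gene start, are shown because CFLAR rose on these arrays while its neighbour and relative CASP8 did not pass. The difference between the 2 genes was not itself tested. Both lie on the plus strand, CFLAR at chr2:201118466-201118765 and CASP8 at chr2:201233213-201233512. Capitals mark a match, on either strand, to the core of the interferon-stimulated response element, a pair of GAAA blocks with a short spacer.
CFLAR: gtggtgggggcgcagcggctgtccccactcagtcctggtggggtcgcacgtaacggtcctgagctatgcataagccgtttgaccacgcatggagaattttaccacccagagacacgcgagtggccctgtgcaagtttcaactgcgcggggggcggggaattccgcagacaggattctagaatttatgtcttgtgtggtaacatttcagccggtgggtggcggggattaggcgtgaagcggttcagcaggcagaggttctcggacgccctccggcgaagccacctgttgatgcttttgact
CASP8: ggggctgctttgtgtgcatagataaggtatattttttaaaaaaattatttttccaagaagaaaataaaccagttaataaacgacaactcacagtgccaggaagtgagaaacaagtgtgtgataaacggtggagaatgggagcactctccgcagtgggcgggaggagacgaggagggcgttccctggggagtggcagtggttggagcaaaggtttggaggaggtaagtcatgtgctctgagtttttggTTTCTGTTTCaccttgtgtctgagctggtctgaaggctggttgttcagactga
The CASP8 window holds 1 match, on the reverse strand at bases 248 to 257 of the window, across the annotated start. The CFLAR window holds 0, as do those of FAS and FADD. Over all 35116 promoters of this length, 3.57% hold the letters. A match is a description of letters and not a binding site, and both windows belong to the RefSeq start, which need not be the start used in these cells.

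At gene level the pathway's inhibitor CFLAR and the TRAIL receptor TNFRSF10A stood higher with satellite alpha. TNFRSF10B, FAS, FADD and CASP8 showed no difference past the threshold. Of the 6 genes bright enough to be tested, TNFRSF10A and CFLAR rose and 0 fell (limma, adjusted p under 0.05; at an unadjusted p under 0.05, 2 were higher and 1, FAS, lower). Across all 10879 tested genes, 7.72% rose and 13.0% fell. TNFRSF10D and CASP10 lay below the floor and were read only in the probe-set fit. In that fit, over 49293 probe sets, 5 of the 33 probe sets rose and 0 fell, against 4.18% higher and 4.19% lower of all probe sets (at an unadjusted p under 0.05, 7 were higher and 1 lower). Of the 5, 3 belong to CFLAR and so share a gene. The groups did not overlap for 7 probe sets that were higher and 2 that were lower, against 12.6% and 13.4% of all probe sets. These are bulk samples, so a change in every cell and a change in a share of the cells cannot be told apart.

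**Figure D1:**
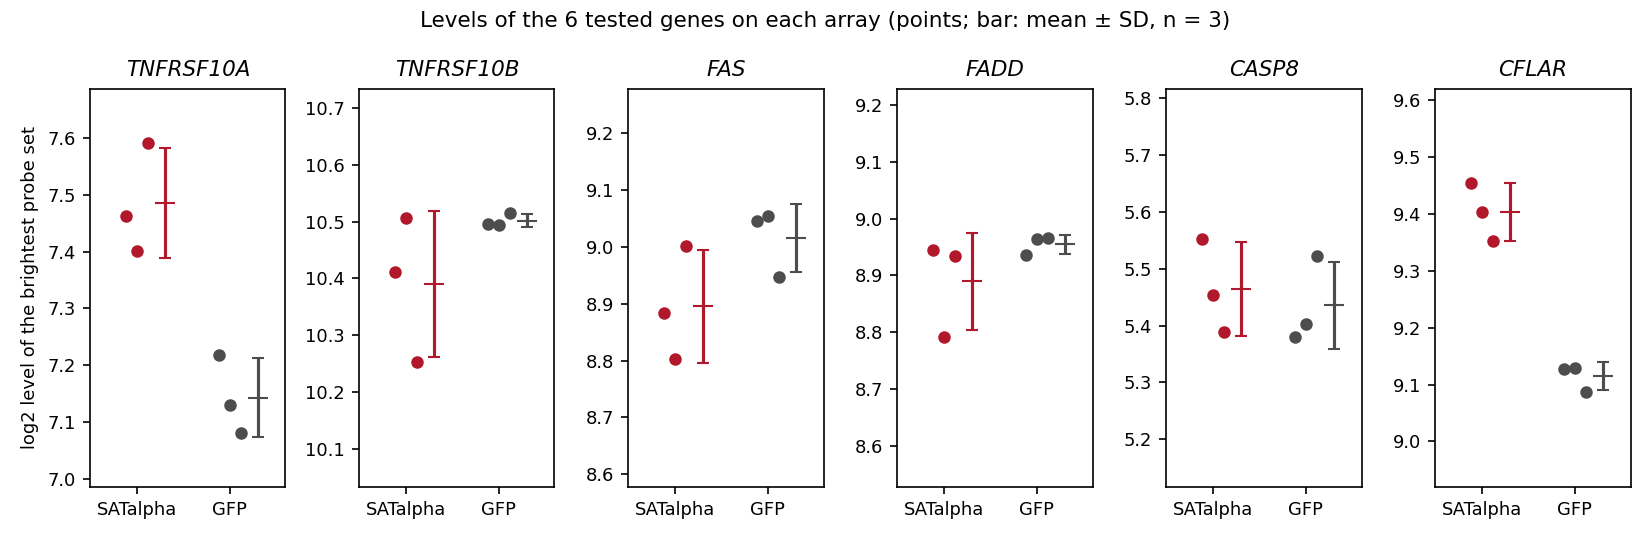
Log2 level of the brightest probe set of each tested gene on the 3 SATalpha and 3 GFP arrays, with the mean and SD beside the points; every panel spans the same log2 range. The SATalpha points lie above all GFP points for TNFRSF10A and CFLAR, and the groups overlap for TNFRSF10B, FAS, FADD and CASP8.

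TNFRSF10A, which encodes the TRAIL receptor DR4 and lies in a run of receptor genes with TNFRSF10B, TNFRSF10C and TNFRSF10D, has 1 probe set. Its log2 levels were 7.46, 7.40 and 7.59 in SATalpha, against 7.22, 7.13 and 7.08 in GFP. The lowest SATalpha array stood above the highest GFP array. The means were 7.49 ± 0.10 in SATalpha and 7.14 ± 0.07 in GFP (SD, n = 3 each), a log2 difference of 0.34 (SE 0.07, 95% interval 0.20 to 0.49) or 1.27-fold, with a limma adjusted p of 0.00270. The gene-level call held in all 15 alternative settings, with adjusted p from 0.000847 to 0.0184. The settings that change the filter or the choice of probe set left its log2 values as they were. In the probe-set fit without a mean-variance trend it missed the threshold (limma adjusted p = 0.0582). With no second probe set, the difference has no check within the gene.

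TNFRSF10B, which encodes the TRAIL receptor DR5, gave a divided readout over its 3 probe sets. The brightest, 11719680_x_at, was at 10.41, 10.51 and 10.25 in SATalpha, against 10.50, 10.49 and 10.51 in GFP. The GFP arrays were tightly grouped and 1 SATalpha array lay among them, so the groups overlap. Its log2 difference of -0.11 (95% interval -0.22 to 0.0019) did not pass at gene level (limma adjusted p = 0.154). Without SATalpha replicate 2 it did pass (-0.17, limma adjusted p = 0.0250), and adjusted p ranged from 0.0250 to 0.476 across alternatives. The dimmest probe set, 11753075_a_at, was at 7.05, 7.13 and 6.99 in SATalpha, against 6.74, 6.67 and 6.85 in GFP, with no overlap. In the probe-set fit it rose by 0.30 (SE 0.07, limma adjusted p = 0.0173), a call lost without SATalpha replicate 1 (0.30), SATalpha replicate 2 (0.27), GFP replicate 1 (0.29) or GFP replicate 2 (0.26), or with no mean-variance trend (adjusted p = 0.0768). The probe set between them in level, 11719681_a_at, was also higher without overlap, by 0.13, but did not pass (limma adjusted p = 0.184).

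The unequal change was measured within each array. The level of 11753075_a_at minus that of the brightest probe set was -3.36, -3.38 and -3.26 in SATalpha, against -3.76, -3.82 and -3.66 in GFP. The SATalpha arrays were higher in all 3 cases, by 0.41 on average (two-sided exact permutation p = 0.1, the smallest that 3 against 3 arrays allow). For 11719681_a_at the same gap was 0.24 (exact permutation p = 0.1). Such gaps were computed only for TNFRSF10B, CFLAR and FADD. They use the same values as the probe-set differences and are no separate support for them. The suffix _x_at marks a probe set whose probes can also match other transcripts, and the part of such matches in the TNFRSF10B gaps was not tested. No direction is therefore given for TNFRSF10B as a gene, since the mean of its 3 probe sets was 0.11 (limma adjusted p = 0.132).

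TNFRSF10D, the decoy receptor, was dim in both groups. Its brighter probe set was at 3.53, 3.45 and 3.64 in SATalpha, against 3.39, 3.08 and 3.50 in GFP, and its other one at 2.59, 2.52 and 2.46 in SATalpha, against 2.70, 2.67 and 2.73 in GFP. The first differed by 0.22 (95% interval -0.05 to 0.49) and the second by -0.18 (95% interval -0.38 to 0.03). Neither passed (limma adjusted p = 0.341 and 0.321 over probe sets), and both lay far below the floor.

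FAS, the receptor for FAS ligand, was well above the floor and differed little. Its brighter probe set was at 8.88, 8.80 and 9.001 in SATalpha, against 9.05, 9.05 and 8.95 in GFP. SATalpha replicate 3 lay above GFP replicate 3, and the others were lower. The log2 difference was -0.12 (95% interval -0.24 to -0.0015, limma adjusted p = 0.143) and did not pass. It passed without SATalpha replicate 3 (-0.17, adjusted p = 0.0231 by limma) and with array weights (-0.14, adjusted p = 0.0282), over a range of 0.0231 to 0.394 across alternatives. The second FAS probe set differed by -0.05 (95% interval -0.16 to 0.06).

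FADD, the adaptor that links the receptors to the caspases, was at 8.94, 8.79 and 8.93 in SATalpha, against 8.94, 8.96 and 8.97 in GFP in its brightest probe set. A single SATalpha array, replicate 2, stood low. The log2 difference was -0.07 (95% interval -0.17 to 0.04, limma adjusted p = 0.390). A second probe set was at 7.40, 7.16 and 7.25 in SATalpha, against 7.39, 7.55 and 7.49 in GFP, with 1 SATalpha array just above the lowest GFP array. It differed by -0.21 (95% interval -0.36 to -0.05) and did not pass in the probe-set fit (limma adjusted p = 0.0973). Within arrays, its level minus that of the brightest probe set differed by -0.14 between the groups (two-sided exact permutation p = 0.1). The third FADD probe set was below the floor and differed by 0.10. Its gap to the brightest differed by 0.17 (exact permutation p = 0.3).

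CASP8, the initiator caspase that death receptors activate first, was close to the floor. Its brightest probe set was at 5.55, 5.45 and 5.39 in SATalpha, against 5.38, 5.40 and 5.52 in GFP, with the groups fully mixed. The log2 difference was 0.03 (95% interval -0.16 to 0.22, limma adjusted p = 0.861), so this test leaves room for a change of that size in either direction. Of its 8 probe sets, 2 lay above the floor. Differences over the 8 ran from -0.20 to 0.09 with a median of -0.03, 4 were positive and 4 negative, and 0 passed (limma over probe sets; 0 also at an unadjusted p under 0.05). CASP10, its close relative, had 5 probe sets, all below the floor. The brightest was at 5.12, 5.15 and 4.93 in SATalpha, against 5.09, 5.09 and 5.18 in GFP. Its log2 difference was -0.05 (95% interval -0.26 to 0.16). The 5 ran from -0.11 to 0.07, and 0 passed (limma over probe sets; 0 also at an unadjusted p under 0.05).

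**Figure D2:**
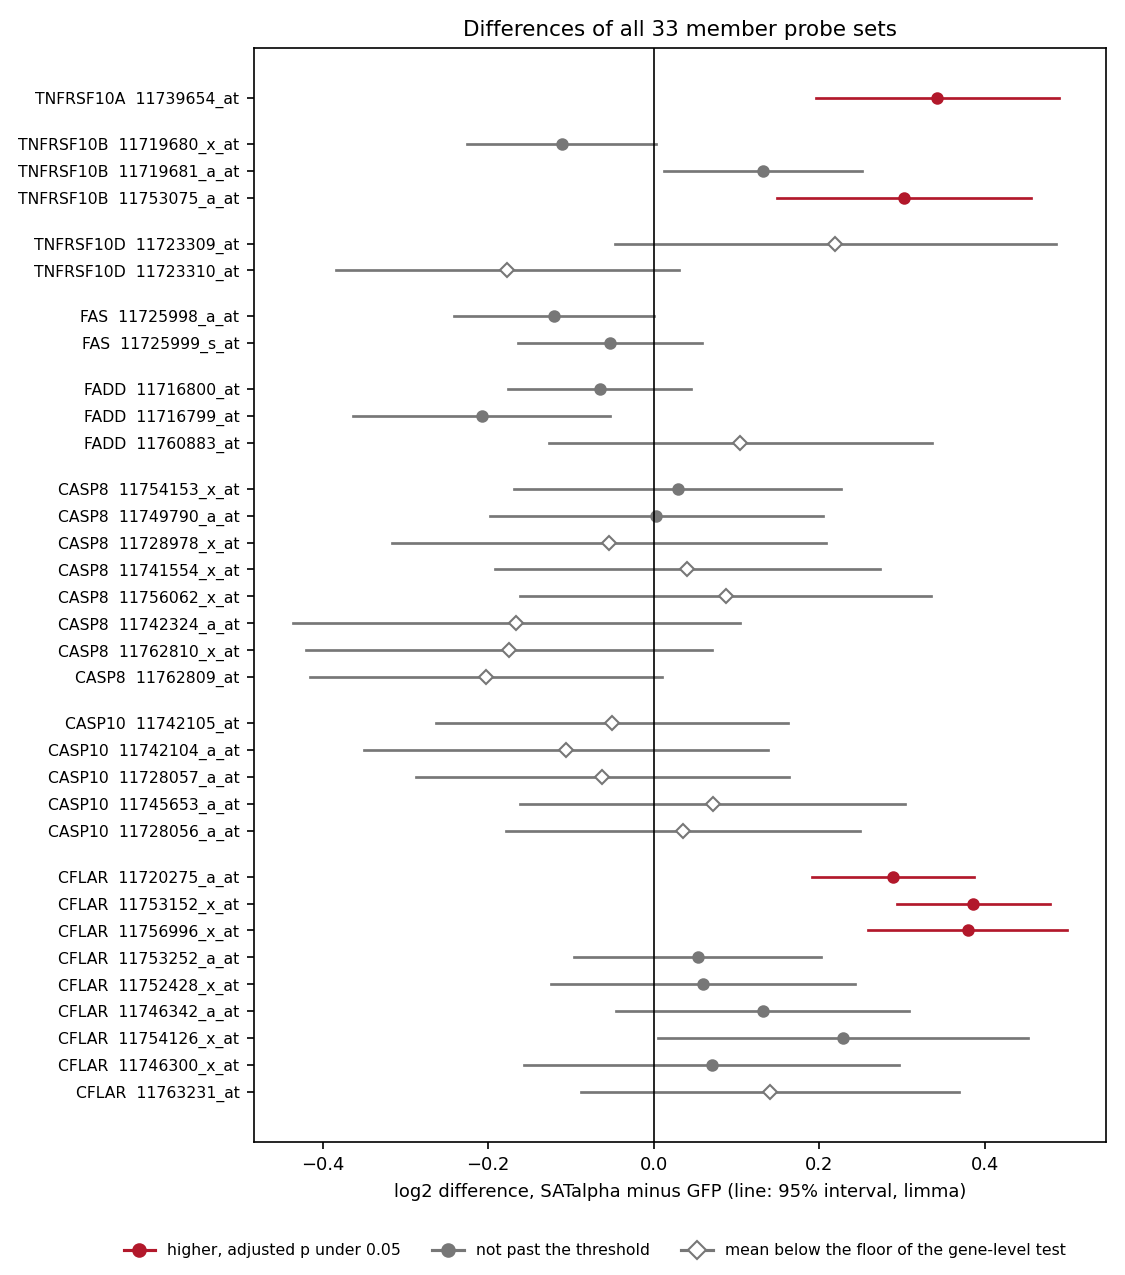
Log2 difference, SATalpha minus GFP, of each of the 33 probe sets with its 95% limma interval, grouped by gene and ordered by mean level within a gene; red marks the 5 that rose and open diamonds the 15 below the floor. The red points are the TNFRSF10A probe set, 1 of 3 for TNFRSF10B and the brightest 3 of 9 for CFLAR.

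CFLAR, the caspase-like inhibitor, had the clearest difference. Its brightest probe set, 11720275_a_at, was at 9.46, 9.40 and 9.35 in SATalpha, against 9.13, 9.13 and 9.09 in GFP. All SATalpha arrays stood above all GFP arrays, with a gap wider than the range within either group. The means were 9.40 ± 0.05 in SATalpha and 9.11 ± 0.02 in GFP (SD, n = 3 each), a log2 difference of 0.29 (SE 0.04, 95% interval 0.19 to 0.38) or 1.22-fold, with a limma adjusted p of 0.000488. The gene-level call held in all 15 alternative settings. As the mean of its 9 probe sets, CFLAR differed by 0.19 (limma adjusted p = 0.0238, the highest across alternatives).

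The CFLAR probe sets did not move alike. The next in level, 11753152_x_at, was at 9.390, 9.394 and 9.401 in SATalpha, against 8.997, 8.996 and 9.033 in GFP, with a rise of 0.39 in the probe-set fit (limma adjusted p = 7.82e-05). The third, 11756996_x_at, was at 7.93, 7.86 and 7.94 in SATalpha, against 7.53, 7.51 and 7.55 in GFP, and rose by 0.38 (adjusted p = 0.000737). In both, the groups were far apart and the arrays within a group close together. Both carry the suffix _x_at, and the part of matches to other transcripts in their rise was not tested. The other 6 differed by 0.05 to 0.23 and did not pass. All 9 were positive, although probe sets of 1 gene share its transcripts and are not independent. Within arrays, 11753252_a_at minus the brightest probe set was -2.55, -2.66 and -2.52 in SATalpha, against -2.38, -2.32 and -2.32 in GFP. This gap was lower by 0.24 in SATalpha, without overlap (difference -0.24, two-sided exact permutation p = 0.1, the smallest this design allows). It was the largest of the 8 such gaps against the brightest CFLAR probe set. The other 7 had exact permutation p of 0.2 to 0.7, and 2 of them, for 11753152_x_at and 11756996_x_at, went the other way (0.10 and 0.09). CFLAR is known to give long and short protein forms by splicing. The annotation used here assigns probe sets to the gene and not to a form, so no form is named.

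**Figure D3:**
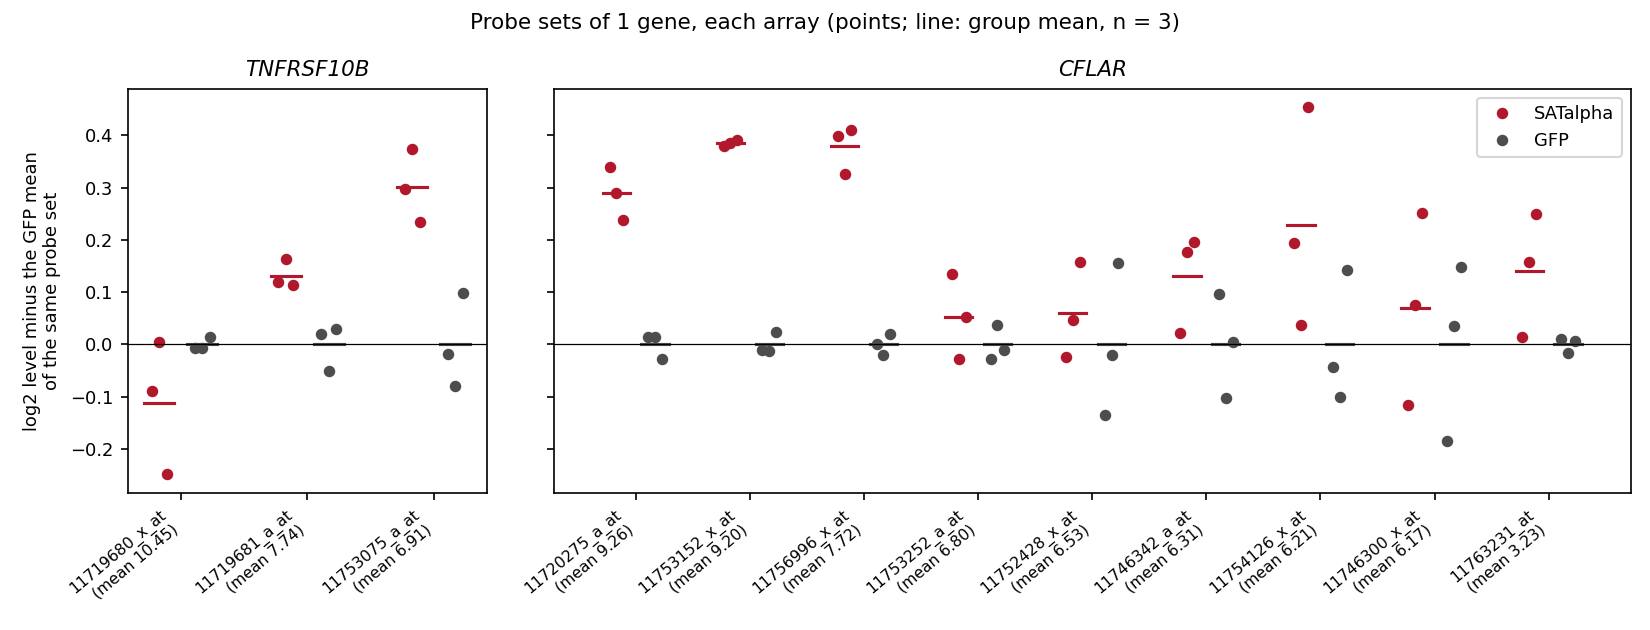
Log2 level of each TNFRSF10B and CFLAR probe set on each array, minus the GFP mean of that probe set, with SATalpha left of GFP, group means as lines and probe sets ordered by mean level. The brightest TNFRSF10B probe set lies lower in SATalpha than the other 2, and the brightest 3 CFLAR probe sets lie 0.29 to 0.39 above GFP while the other 6 lie 0.05 to 0.23 above it.

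The patterns most like these 2 genes over the 6 arrays were found by the root mean square difference of log2 values after each gene was centred on its mean. For TNFRSF10A the nearest of the tested genes were SAMD9L (0.03), HERC5 (0.03) and GBP3 (0.03), which rose by 0.36, 0.33 and 0.35. For CFLAR they were SFXN1 (0.02), DDX3X (0.03) and SAMHD1 (0.03), which rose by 0.27, 0.30 and 0.31. These are descriptions of 6 arrays and carry no test.

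The wider pathway was read from 5 lists. They named 51 genes, 45 with a probe set of their own, and 34 were bright enough for the test. The remaining genes had no gene-level test, and of them only TNFSF10 is described below, from the probe-set fit. Of the 34, 2 rose and 5 fell, against 20.8% called in either direction over all tested genes, and their median log2 difference was -0.02, as was that of all tested genes. The count was 3 without SATalpha replicate 1. With each gene as the mean of its probe sets, 4 rose and 3 fell, so the balance of directions depends on the probe set chosen. The lists thus held about the share of called genes found on the array as a whole.

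Among ligands and other receptors, 0 rose and 1 fell of 7 tested, with a median of 0.02. TNFRSF1A, the main receptor for TNF, was at 7.95, 7.96 and 8.12 in SATalpha, against 8.21, 8.14 and 8.24 in GFP, and fell by 0.19 (limma adjusted p = 0.0371). That call was lost without SATalpha replicate 1 (-0.16), SATalpha replicate 2 (-0.16), GFP replicate 1 (-0.18), GFP replicate 2 (-0.21) or GFP replicate 3 (-0.16). It was also lost with no filter on dim genes (adjusted p = 0.0536) and with no mean-variance trend (adjusted p = 0.0707). The other 3 TNFRSF1A probe sets lay between -0.25 and 0.10, and the mean of all 4 did not pass (-0.14). In the probe-set fit 0 of the 4 passed (limma adjusted p = 0.0737 for the brightest). LTA, the ligand lymphotoxin alpha and chosen after its values were seen, differed by -0.37 and did not pass (adjusted p = 0.0604). TNFSF10, the TRAIL gene and chosen after its values were seen, was below the floor at 4.24, 4.42 and 4.27 in SATalpha, against 4.05, 4.10 and 4.03 in GFP. These dim values did not overlap, but the difference of 0.25 did not pass in the probe-set fit (limma adjusted p = 0.179).

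Among adaptors, kinases and ubiquitin enzymes of the receptor complexes, 1 rose and 3 fell of 13 tested, with a median of -0.05. TNFAIP3, a ubiquitin-editing enzyme that restrains TNF receptor signalling, was at 9.54, 9.60 and 9.39 in SATalpha, against 9.97, 9.93 and 9.94 in GFP, and fell by 0.44 (limma adjusted p = 5.94e-05). BIRC2, the ubiquitin ligase cIAP1, fell by 0.21 (adjusted p = 0.00166), and all 5 of its probe sets fell in the probe-set fit. Both stayed past the threshold in all 15 alternatives, although TNFAIP3 fell by only 0.20 in its other probe set, which stands for it when _s_at and _x_at probe sets are left out. DEDD, a protein with a death effector domain, fell by 0.27 (adjusted p = 0.0101) but missed the threshold without SATalpha replicate 1 (-0.23) or as the mean of its 5 probe sets (-0.15). Of those 5, 2 fell in the probe-set fit, and the 4 besides the brightest ranged from -0.29 to 0.06. RBCK1, a subunit of the linear ubiquitin ligase at the TNF receptor, rose by 0.25 (adjusted p = 0.0178). In the probe-set fit 1 of its 4 probe sets rose. RBCK1 lost the call without SATalpha replicate 1 (0.24), GFP replicate 1 (0.26) or GFP replicate 2 (0.21), and when _s_at and _x_at probe sets were left out (0.19).

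Of 6 other caspases tested, 1 rose and 0 fell, with a median of -0.02. CASP1, the inflammatory caspase that matures interleukin-1 beta and is not part of the death receptor complex, was at 7.76, 7.70 and 7.88 in SATalpha, against 7.47, 7.28 and 7.37 in GFP. It rose by 0.41 (SE 0.07, limma adjusted p = 0.000823), and 7 of its 9 probe sets rose in the probe-set fit. The 8 others besides the brightest ranged from 0.0032 to 0.64. The mitochondrial link and execution list had 0 higher and 1 lower of 7. DIABLO, a mitochondrial protein that antagonises inhibitors of apoptosis, was at 9.28, 9.30 and 9.31 in SATalpha, against 9.42, 9.47 and 9.49 in GFP. It fell by 0.17 (adjusted p = 0.0120) but missed the threshold without SATalpha replicate 1 (-0.16) or GFP replicate 3 (-0.15). BID, which carries the signal from CASP8 to mitochondria, differed by 0.07 in its brightest probe set (adjusted p = 0.407). The remaining 3 BID probe sets ranged from 0.11 to 0.22, and 2 of the 4 rose in the probe-set fit. XIAP of the same list differed by 0.15 in its brightest probe set (limma adjusted p = 0.169). Its other 4 probe sets ranged from 0.065 to 0.66, and 2 of its 5 rose in the probe-set fit. HTRA2 differed by -0.06 (limma adjusted p = 0.468), and 1 of its 4 probe sets fell in the probe-set fit. BID, XIAP and HTRA2 are given here outside the naming rule. In the necroptosis list 1 of 3 genes was tested, MLKL, the executioner of necroptosis, which differed by 0.09 (adjusted p = 0.320).

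**Figure D4:**
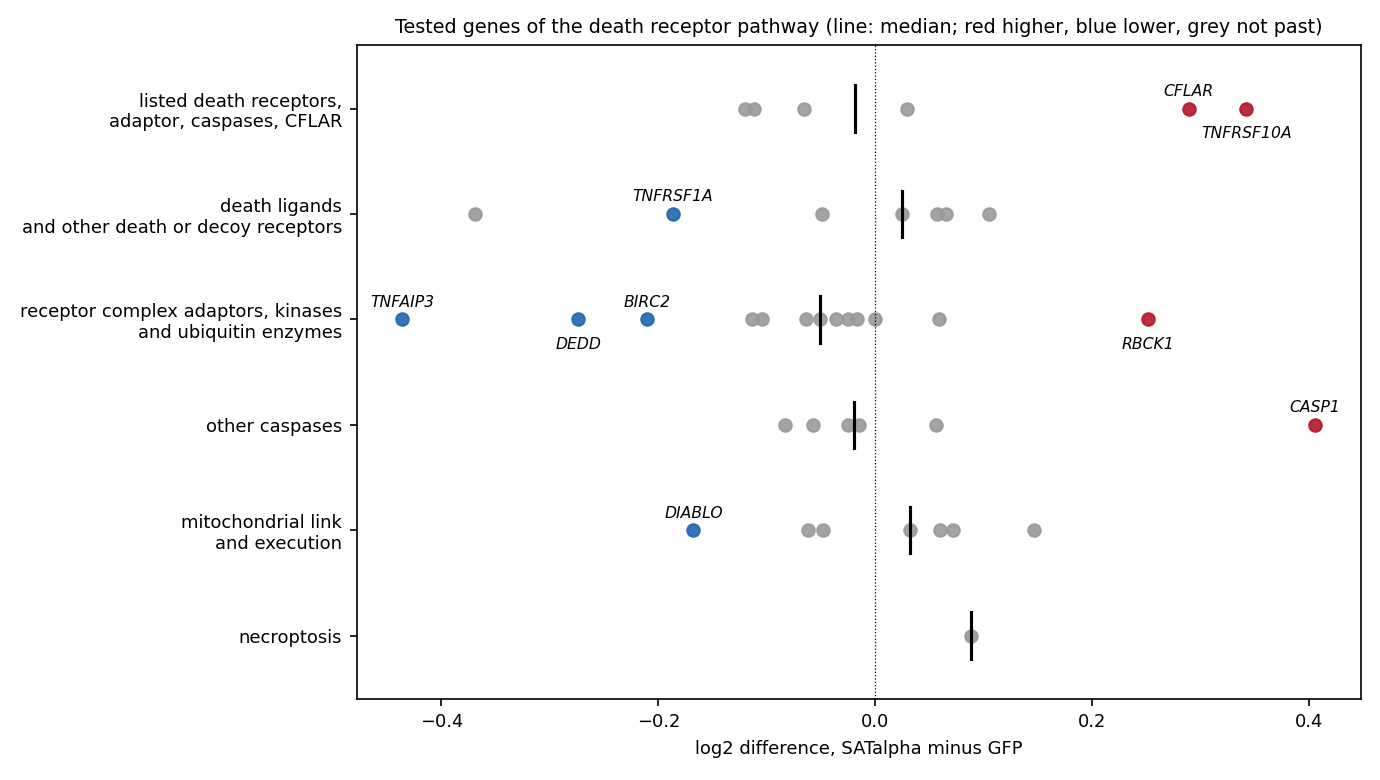
Log2 difference, SATalpha minus GFP, of each tested gene of the front end of the pathway (top row) and of the 5 lists below it, with the median of each row as a line and called genes named. TNFRSF10A and CFLAR lie at 0.34 and 0.29, apart from the other 4 genes of their row, which lie between -0.12 and 0.03.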

How the data were processed

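Total RNA of 6 wells was labelled with biotin for Affymetrix 3′ arrays, per the labels' protocols. The deposited values are on a log2 scale, read from their range, and were already normalized between arrays by the authors. MAS5 and RMA are named in the submitters' processing notes, with no role or version, and how background was treated is not given in the sources used here. No detection call or scan date was used, so batch could not be examined, and the number of arrays limits precision (median SE 0.06). If RMA made the values, differences of dim probe sets are compressed.

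The table holds 49372 probe sets, 79 of them controls. Names came from the platform annotation: 44988 probe sets have 1 symbol, 1832 several and 2473 are not listed. For the gene-level test each gene was its probe set with the highest mean, and the lowest 40% of 18132 genes were left out. A second fit took all 49293 non-control probe sets. Both used limma 3.58.1 in R 4.3.3 (lmFit, eBayes with a mean-variance trend), SATalpha minus GFP, with Benjamini-Hochberg adjustment over all features and a threshold of 0.05, and were tested on simulated data. Replicate numbers were not taken as pairs: deviations of same-numbered arrays correlated at -0.0035, -0.24 and -0.29.

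All 8 genes and their probe sets are described. From each list up to 4 called genes were named by smallest p, or up to 2 where none passed, and for each called gene of the 8 the nearest 3 patterns. The genes and lists were chosen with earlier results of these data known. Promoters are RefSeq sequences on GRCh38.p14, and no genome build is named for the arrays. They were looked up only for those of the 8 genes on chromosomes 2, 10 and 11. They were found for 4, FAS, FADD, CASP8 and CFLAR, and not for CASP10. Promoters of the chromosome 8 genes TNFRSF10A, TNFRSF10B and TNFRSF10D were not looked up. Alternatives were other filters, median centring, quantile normalization, a gene as the mean of its probe sets, leaving out _s_at and _x_at probe sets, a replicate block, no trend, array weights and each array left out.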

Additional observations from a re-analysis of the deposited data

How the results depend on the processing

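TNFRSF10A and CFLAR passed at gene level in all 15 alternatives, so the count of called genes of the 8 stayed at 2 or 3, and it was 2 to 3 with each array left out. The count of called probe sets dropped to 2 of 33 without a mean-variance trend, where the TNFRSF10A probe set, the brightest CFLAR probe set and 11753075_a_at of TNFRSF10B missed the threshold (limma adjusted p = 0.0582, 0.0533 and 0.0768). It was 4 to 5 with each array left out. The count of called genes in the other pathway lists was 3 to 9 with each array left out. The cause of these shifts was not tested. With the replicate block the counts were 2, 4 and 6 for the genes, the probe sets and the lists, against 2, 5 and 7. With it TNFRSF1A and 11753075_a_at missed the threshold, and samples shared only a number.

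TNFRSF10B turned to 0.11 as the mean of its probe sets and to 0.13 without _s_at and _x_at probe sets, because other probe sets then stand for it. The other sign changes were among values near 0 that passed in no alternative. CASP8 ran from -0.015 to 0.073 with each array left out, and its probe sets 11754153_x_at, 11749790_a_at, 11728978_x_at and 11741554_x_at from -0.015 to 0.073, -0.030 to 0.063, -0.16 to 0.029 and -0.0070 to 0.11. Under quantile normalization 11749790_a_at was at -0.00033. The CASP10 probe sets 11742105_at, 11728057_a_at, 11745653_a_at and 11728056_a_at ran from -0.091 to 0.016, -0.10 to 0.0031, -0.019 to 0.15 and -0.020 to 0.078. The CFLAR probe sets 11752428_x_at and 11746300_x_at ran from -0.0073 to 0.14 and -0.022 to 0.16. Of 14 genes followed at gene level 7 kept direction and side of the threshold in every alternative, and of 33 probe sets 20 did.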
